A study of Mus musculus with 4 samples.

Results

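Layer 6 intratelencephalic (L6 IT) neurons are excitatory neurons of the deepest cortical layer. In single-nucleus RNA-seq of cortex and hippocampus, 504 of 36094 nuclei that passed the quality filter were assigned to this class, 1.40% of all nuclei and 3.32% of the 15168 excitatory nuclei. A member held at least 2 transcripts (unique molecular identifiers, UMIs) of Slc17a7, the vesicular glutamate transporter of cortical excitatory neurons, and at most 1 UMI of Gad1 and Gad2 together. It also held a UMI of at least 3 of 6 L6 IT genes (Oprk1, Sulf1, Bmp3, Dnah14, Col6a1 and 1700023F02Rik) and of fewer than 3 of 5 layer 6 corticothalamic (L6 CT) genes (Syt6, Rprm, Trbc1, Arhgap25 and Foxp2). These measured UMIs chose the members, so the genes of the rule are described without a test.

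The nuclei were sorted by flow cytometry and sequenced as 3′ libraries from 5-week-old mice, 1 mouse a library. The 2 libraries labelled Sel1L flox/flox are called fl/fl 1 and fl/fl 2, and the 2 labelled Sel1L Syn-Cre are called SynCre 1 and SynCre 2. Both genotypes carry the floxed Sel1L allele, and the Syn-Cre mice add a Cre recombinase under the Synapsin I promoter, which is active in neurons. The deletion is thus meant for neurons, and whether glia were spared was not tested. The comparison asks how loss of Sel1L changes these neurons. The members numbered 139 and 113 in the fl/fl libraries and 131 and 121 in the SynCre libraries, with 2520390, 1821389, 2058105 and 1934409 UMIs in sum and a median of 15857, 14413, 14070 and 14500 UMIs per nucleus in that order. Levels are given in CPM, the usual depth-scaled unit, as a gene's UMIs scaled to the UMI total of the members of that library, first fl/fl 1 and 2, then SynCre 1 and 2.

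Intratelencephalic neurons send their axons to other parts of the cortex and to the striatum, whereas their L6 CT neighbours project to the thalamus. SEL1L is the adaptor of the ubiquitin ligase HRD1 in ER-associated degradation (ERAD), which draws misfolded proteins out of the endoplasmic reticulum (ER) for destruction by the proteasome. A load of misfolded protein in the ER switches on the unfolded protein response (UPR), which raises chaperones such as BiP and components of ERAD itself, and neuronal firing switches on a separate programme of activity-regulated genes.

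The members were mostly defined by the smallest number of genes the rule allows. Of the 139, 113, 131 and 121 members, 88, 80, 76 and 72 held exactly 3 of the 6 genes, and 366, 276, 262 and 308 excitatory nuclei of the same libraries lay just outside with 2 genes. Another 60 excitatory nuclei held 3 or more genes of both sets and were left out. Col6a1, a collagen VI chain, had a UMI in 87.8%, 84.1%, 87.8% and 81.8% of members, and Sulf1, an extracellular sulfatase, in 75.5%, 80.5%, 81.7% and 77.7%. Oprk1, the kappa opioid receptor, had a UMI in 35.3%, 17.7%, 32.1% and 28.1%. Dnah14, an axonemal dynein chain, had a level of 77.8 and 100 CPM in the fl/fl libraries and 138 and 168 CPM in the SynCre libraries, which were higher without overlap. The same order of Dnah14 was seen in the other excitatory nuclei, at 4.91 and 5.69 CPM against 8.48 and 13.97 CPM, and the count of genes past the threshold is therefore also given for a rule without Dnah14. Syt6, a synaptotagmin and one of the L6 CT genes that a member had to hold few of, had 32 and 11 UMIs in the fl/fl libraries and 0 and 1 in the SynCre libraries, or 12.7 and 6.04 CPM against 0 and 0.52 CPM, lower in the SynCre libraries without overlap.

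Genes outside the rule described the same nuclei. Bmpr1b, a BMP receptor, stood at 143, 154, 159 and 128 CPM in the members and at 18.9 to 23.9 CPM in the other excitatory nuclei. Zfp804b, a zinc finger gene, stood at 1611, 1277, 1274 and 819 CPM. Both genes were higher than in the other excitatory nuclei in each of the 4 libraries. Over 8 L6 IT marker genes that the rule did not use, the summed level was 1714, 1404, 1346 and 954 CPM in the members and 419, 311, 247 and 147 CPM in L6 CT nuclei, but Zfp804b alone made up most of each sum.

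Pld5, a phospholipase D family member named as a marker of these neurons but not used by the rule, did not set them apart. Its level was 21.0, 18.7, 13.1 and 57.4 CPM in the members and 15.9, 17.3, 15.6 and 17.7 CPM in the other excitatory nuclei, so only SynCre 2 stood clearly above. Gnb4, a G protein beta subunit, was higher in the members at 59.1, 87.3, 58.8 and 58.9 CPM than in the other excitatory nuclei at 12.4 to 13.9 CPM, but it was also high in nuclei carrying oligodendrocyte markers, at 108, 87.6, 68.4 and 51.1 CPM. Osr1, a transcription factor gene, stood at 11.5, 5.49, 9.23 and 9.31 CPM in the members and below 1 CPM in the other excitatory nuclei.

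RNA of marker genes of other cell types was present and was not even across libraries. The 10 L6 CT markers summed to 739, 787, 351 and 562 CPM in the members against 6229, 5462, 5815 and 5390 CPM in L6 CT nuclei, with Hs3st4 the most abundant, and both SynCre libraries lay under both fl/fl libraries. In the fl/fl libraries this sum was above that of the 6 L6 IT genes of the rule, which was 521, 492, 605 and 582 CPM. The L4/5 IT markers summed to 1137, 972, 936 and 908 CPM in the members and to 769, 830, 646 and 629 CPM in the other excitatory nuclei. Nearly all of it in the members was Il1rapl2, at 1026, 906, 887 and 857 CPM, a gene that stood at 886, 939, 742 and 765 CPM in L4/5 IT nuclei. The 5 L5 IT markers summed to 446, 373, 448 and 347 CPM in the members, above the 259, 284, 240 and 202 CPM of the other excitatory nuclei. Most of it in the members was Galnt14, an enzyme that starts O-linked glycans, at 353, 247, 398 and 294 CPM. The L6b list (5 genes) summed to 523, 719, 306 and 351 CPM in the members, nearly all of it Cdh18, and to 2459, 2511, 2078 and 1976 CPM in L6 CT nuclei. The 12 oligodendrocyte and myelin markers summed to 312, 115, 126 and 174 CPM with Mbp on top, and the 7 GABAergic markers to 165, 44.5, 70.0 and 71.3 CPM with Erbb4 on top, both highest in fl/fl 1. A doublet caller marked 47 of the 504 members (22, 11, 7 and 7), and 249 held UMIs of 2 or more markers of 1 glial list (76, 57, 66 and 50). None of the members' cell barcodes was shared between libraries.

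**Figure D1:**
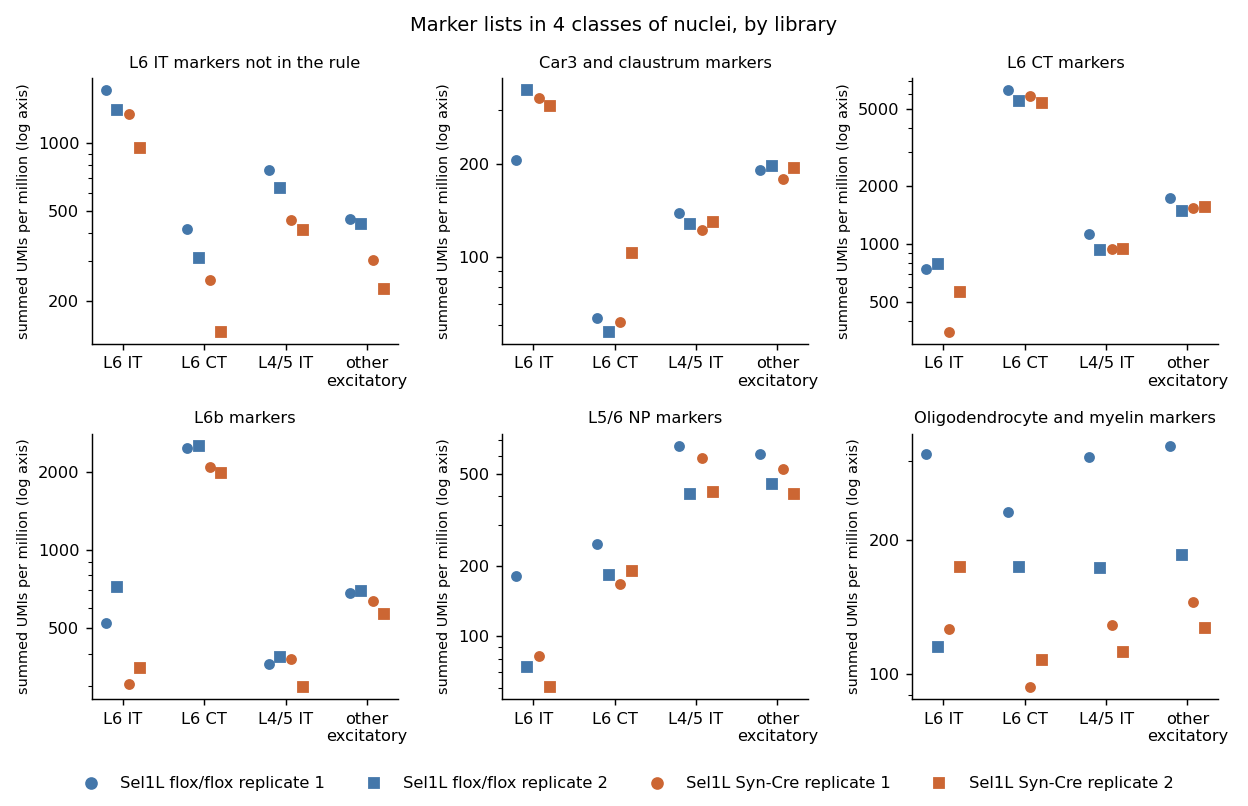
Summed level in CPM (log axis) of 6 marker lists in the L6 IT nuclei and in 3 other classes of excitatory nuclei, 1 point a library. The L6 IT nuclei were above the L6 CT nuclei for the L6 IT markers outside the rule and for the Car3 and claustrum list and far below them for the L6 CT list, where the 2 SynCre libraries (351 and 562 CPM) lay under the 2 fl/fl libraries (739 and 787 CPM).

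The targeted gene and the transgene did not follow the labels in these nuclei. Sel1l stood at 97.2 and 90.6 CPM in the libraries labelled fl/fl and at 99.6 and 96.2 CPM in those labelled SynCre (245, 165, 205 and 186 UMIs). The groups overlapped, and the log2 fold change was 0.04 ± 0.15 (SE, n = 2 libraries a group; edgeR quasi-likelihood adjusted p = 0.982). Reads from the 3′ end of a transcript that lie outside the deleted part do not show a deletion, so these values check nothing about the allele. In the other excitatory nuclei Sel1l stood at 94.96 and 88.0 CPM against 125 and 114 CPM, higher in the libraries labelled SynCre. The Cre transcript had 1, 0, 1 and 2 UMIs in the members. Over all nuclei that passed the filter it had 490 and 0 UMIs in fl/fl 1 and fl/fl 2 and 262 and 260 UMIs in the SynCre libraries, which is 3.99, 0, 3.49 and 3.51 CPM, with 3 UMIs or 0.0392 CPM as the limit that the count of 0 allows in fl/fl 2. The library labelled fl/fl 1 thus held Cre transcripts at the level of the SynCre libraries. Over the same nuclei the ERAD gene Derl3 stood at 0.562 and 0.535 CPM in the fl/fl libraries and 17.1 and 10.5 CPM in the SynCre libraries. Hspa5, the gene of BiP, stood at 24.7 and 24.9 against 73.5 and 52.4 CPM, and Herpud1 at 21.9 and 23.7 against 57.8 and 45.1 CPM. In these genes fl/fl 1 lay near fl/fl 2. Whether the labels are right was not tested, and every comparison keeps their names. The libraries also differed by sex: Xist had 1, 2489, 1 and 2417 UMIs in the members and the Y-linked Ddx3y 82, 0, 54 and 0, so that replicate number 1 of each label was a male library and replicate number 2 a female one.

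Between the libraries labelled SynCre and fl/fl, 20 of the 11620 genes tested passed an adjusted p of 0.05 in the L6 IT nuclei, a share of 0.172%. Of these, 13 genes rose (0.112% of those tested) and 7 fell (0.0602%), and 974 genes had an unadjusted p under 0.05. In order of p, the genes that rose were led by the host transcript of a neuronal microRNA pair and by the secreted growth factor Bdnf. By log2 fold change Sik1 (2.81) rose most. The genes that fell were led by Pde11a, an enzyme that breaks down cyclic nucleotides. Without fl/fl 1, which leaves 1 library of that label, all 20 genes kept their direction. The spread then comes from the SynCre libraries alone, so the calls of that fit say nothing further about the 20 genes. Without the nuclei marked as doublets 5 genes rose and 3 fell, and 7 of the 20 genes remained among them. With a rule that did not use Dnah14 (321 nuclei), 2 genes rose and 4 fell, and 4 of the 20 genes remained among them. With the replicate number as a block, which is the same as a block for sex, 52 genes rose and 39 fell, all 20 genes among them.

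The smallest p belonged to 1700016P03Rik (ENSMUSG00000085609), a noncoding transcript on chromosome 11 (GRCm38, chr11:75172560-75177633, plus strand). Its span holds Mir212 and Mir132 on the same strand, so it is the host transcript of both microRNAs, which are known to be induced by neuronal activity through CREB. The mature microRNAs are shown because they share a seed, the stretch that pairs with target transcripts, here bases 2 to 8 in capitals (RefSeq, GRCm38.p6, plus strand, chr11:75173723-75173744 and chr11:75173443-75173464).
mmu-miR-132-3p: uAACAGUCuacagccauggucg
mmu-miR-212-3p: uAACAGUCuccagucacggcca
The libraries measured the host transcript and not the mature microRNAs. The host transcript had 73 and 42 UMIs in the fl/fl libraries and 241 and 278 UMIs in the SynCre libraries, or 29.0 and 23.1 CPM against 117 and 144 CPM. Both SynCre libraries were far above both fl/fl libraries, a log2 fold change of 2.28 ± 0.19 (SE; edgeR adjusted p = 0.00101). Ovca2 overlaps it on the opposite strand, and the strand setting of the counting is not given in the sources used here. The gene was called under all 16 alternatives, with log2 fold changes of 2.05 to 2.49.

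Bdnf (chr2:109674700-109727007, plus strand), the activity-regulated growth factor that signals through the receptor TrkB, was the only other gene called under all 16 alternatives. It stood at 27.4 and 27.5 CPM in the fl/fl libraries and at 77.7 and 91.5 CPM in the SynCre libraries. The groups were well apart and the fl/fl libraries nearly equal, a log2 fold change of 1.60 ± 0.18 (adjusted p = 0.0118), and it lay between 1.48 and 1.77 under the alternatives. Gm47423, a transcript annotated antisense inside Ntrk2 (chr13:58824218-58826994, minus strand), the gene of TrkB, stood at 19.4 and 18.7 CPM against 56.4 and 99.8 CPM. Its log2 fold change was 1.99 ± 0.26 (adjusted p = 0.0347), with no overlap between the groups. Ntrk2 itself stood at 687, 397, 671 and 734 CPM, with overlapping groups and a log2 fold change of 0.34 (adjusted p = 0.71). Whether the counting used strand is not given, and only without it could reads of the 2 genes be mixed.

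Arhgap31, a GTPase-activating protein for Cdc42 and Rac, stood at 23.0 and 19.2 CPM against 113 and 58.9 CPM, a log2 fold change of 2.00 ± 0.31 (adjusted p = 0.0391). Its log2 fold change was 1.40 without SynCre 1 and 2.42 without SynCre 2. Cdh4, the adhesion molecule R-cadherin, stood at 61.5 and 68.6 CPM against 131 and 132 CPM (1.00 ± 0.15, adjusted p = 0.0391), and Galnt16, an O-glycosylation enzyme, at 59.1 and 67.5 CPM against 129 and 124 CPM (0.98 ± 0.15, adjusted p = 0.0391). In each of these genes the lowest SynCre library was above the highest fl/fl library. Arhgap31 was called under 13 of the 16 alternatives, Galnt16 under 11 and Cdh4 under 10. Without the nuclei marked as doublets Cdh4 was at 0.84 (adjusted p = 0.0659) and Galnt16 at 1.05 (adjusted p = 0.0563), and without the members that held glial markers they were at 0.56 (adjusted p = 0.453) and 0.95 (adjusted p = 0.141). Arhgap31 was called in both of these sets and was short of the threshold among members with at least 4 genes of the rule (1.59, adjusted p = 0.102). The remaining genes that rose had few UMIs in the fl/fl libraries. Sik1, a salt-inducible kinase that restrains CREB coactivators, had 4 and 4 UMIs against 25 and 29, and the pseudokinase gene Trib2 had 6 and 4 against 29 and 30. Ccnd3 (cyclin D3) had 7 and 10 UMIs against 36 and 49, the ADP-ribosyltransferase gene Tiparp 18 and 13 against 48 and 101, and the Golgi membrane protein gene Golm1 19 and 9 against 44 and 56. Their log2 fold changes ran from 1.93 (Golm1) to 2.81 (Sik1), and none of these 5 genes was called without SynCre 2. The log2 fold changes were then 2.69 for Sik1, 2.60 for Trib2, 2.14 for Ccnd3, 1.75 for Golm1 and 1.71 for Tiparp.

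**Figure D2:**
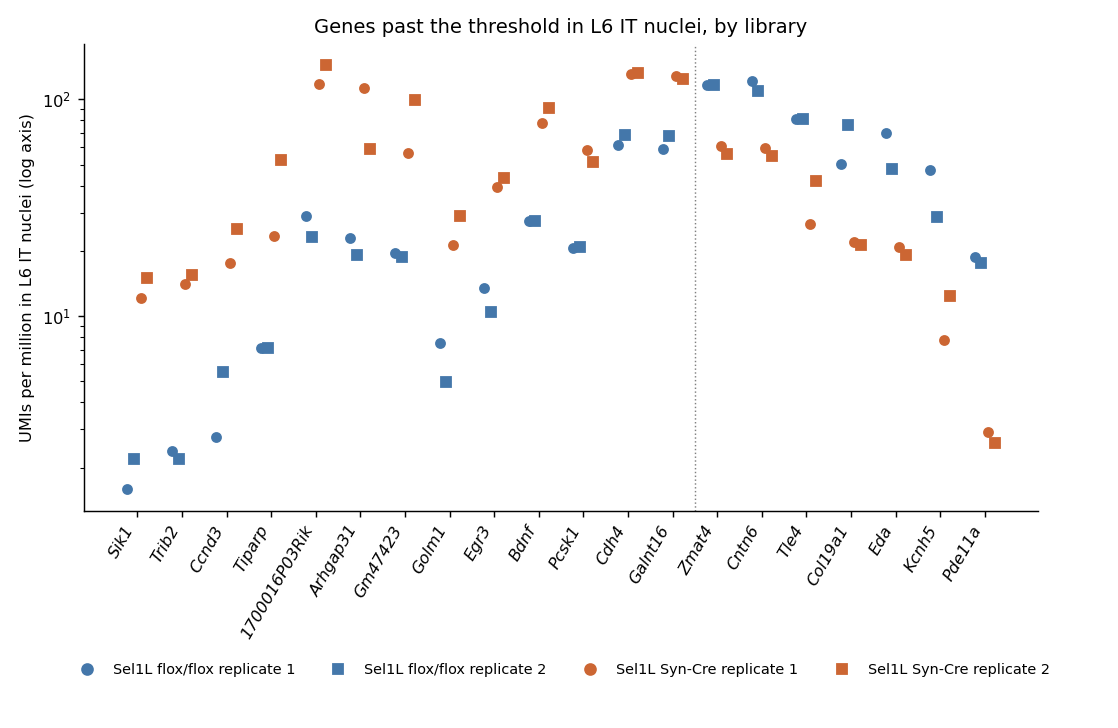
Level in CPM in the L6 IT nuclei (log axis) for the 20 genes past the threshold, 1 point a library, the 13 genes that rose on the left and the 7 that fell on the right, each ordered by size of change. For every gene the 2 SynCre libraries lie on one side of the 2 fl/fl libraries, as for Pde11a, at 18.6 and 17.6 CPM against 2.92 and 2.58 CPM. The genes were picked by a test between these same libraries, so this separation is no further support.

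Estimates for activity-regulated genes were nearly all above 0. Of 23 genes on this list, 22 were tested, 3 rose (Bdnf, Egr3 and Pcsk1), none fell, 15 had an unadjusted p under 0.05 in the upward direction, and the median log2 fold change was 1.00 against 0.00 over all genes tested. Over all 11620 genes tested 0.112% rose and 501 had an unadjusted p under 0.05 in the upward direction. Summed over the list, the level was 648 and 690 CPM in the fl/fl libraries and 1085 and 1379 CPM in the SynCre libraries, with Homer1 the most abundant gene in each. Egr3, an immediate early transcription factor, stood at 13.5 and 10.4 CPM against 39.4 and 43.4 CPM, a log2 fold change of 1.74 ± 0.23 (adjusted p = 0.0347). Pcsk1, the convertase that cleaves neuropeptide precursors and proBDNF, stood at 20.6 and 20.9 CPM against 58.3 and 51.2 CPM (1.38 ± 0.20, adjusted p = 0.0391). For both genes the groups did not overlap. Egr3 was called under 12 of the 16 alternatives and Pcsk1 under 11. Both missed the threshold among members with at least 4 genes of the rule and members without a UMI of the 5 L6 CT genes. They also missed it among members with fewer than 10 Hs3st4 UMIs and members by the rule without Dnah14. The adjusted p was up to 0.31 for Egr3 and 0.155 for Pcsk1. The log2 fold change of Egr3 was then 1.62, 1.43, 1.71 and 1.82 in that order, and that of Pcsk1 1.25, 1.51, 1.33 and 1.22. Pcsk1 was also short of the threshold without the nuclei marked as doublets (1.19, adjusted p = 0.0609).

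Several genes of the list lay just short of the threshold. Nr4a3, an orphan nuclear receptor of the immediate early class, stood at 26.6 and 17.6 CPM against 50.05 and 88.4 CPM (1.58 ± 0.28, adjusted p = 0.0557). Scg2, a granin of secretory vesicles, stood at 15.1 and 23.6 CPM against 44.7 and 50.1 CPM (1.30 ± 0.23, adjusted p = 0.0559). Homer1, a scaffold of the postsynaptic density, stood at 243 and 199 CPM against 365 and 476 CPM (0.90 ± 0.16, adjusted p = 0.0576). The groups did not overlap in any of these genes. The log2 fold changes were 1.96, 1.00 and 1.07 without fl/fl 1, and 1.17, 1.25 and 0.73 without SynCre 2. Each of these fits leaves 1 library of a label, so only the sizes are given. With the replicate number, and so sex, as a block, 7 genes of the list rose in place of 3, while over all 11620 genes 52 rose in place of 13. The 7 included Nr4a3 (1.54, adjusted p = 0.0134), Scg2 (1.30, adjusted p = 0.0134) and Homer1 (0.89, adjusted p = 0.00896). Other members of the list had overlapping groups. Egr1 stood at 36.9, 46.1, 36.4 and 49.6 CPM, Junb at 78.6, 74.7, 78.2 and 94.6 CPM (log2 fold change 0.15), and Npas4, a transcription factor induced by calcium entry, at 16.7, 26.9, 22.8 and 15.5 CPM (log2 fold change -0.17).

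**Figure D3:**
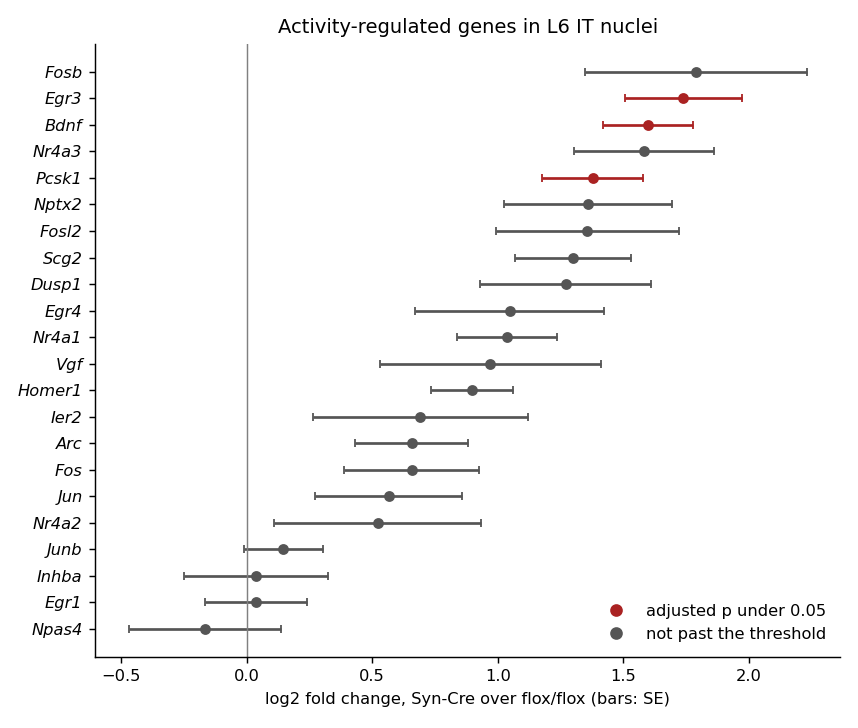
Log2 fold change (SynCre over fl/fl) with its SE for the 22 activity-regulated genes tested in the L6 IT nuclei. Of the 22 estimates, 21 are above 0 and 3 (Egr3, Bdnf and Pcsk1) passed the threshold, while Junb, Inhba, Egr1 and Npas4 lie within 1 SE of 0.

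For Bdnf and Pcsk1, both on this list and risen, the promoters that held a match to the motifs below are shown. For Bdnf this is 1 of its 7 promoters. Egr3, which also rose, had no promoter in the set searched. TGACGTCA is the full cAMP response element, to which CREB binds, and TGACGT is a shorter form that every TGACGTCA contains. Each sequence runs from 250 bases before a transcription start to 50 bases after it (RefSeq, GRCm38.p6, plus strand, chr2:109692186-109692485 for Bdnf and chr13:75089607-75089906 for Pcsk1), and the capitals mark matches to either motif on either strand.
Bdnf: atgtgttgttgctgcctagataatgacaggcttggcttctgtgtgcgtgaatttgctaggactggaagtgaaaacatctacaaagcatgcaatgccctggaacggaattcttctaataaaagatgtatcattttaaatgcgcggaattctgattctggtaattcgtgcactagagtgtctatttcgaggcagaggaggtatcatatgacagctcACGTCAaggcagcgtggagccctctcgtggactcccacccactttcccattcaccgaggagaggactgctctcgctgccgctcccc
Pcsk1: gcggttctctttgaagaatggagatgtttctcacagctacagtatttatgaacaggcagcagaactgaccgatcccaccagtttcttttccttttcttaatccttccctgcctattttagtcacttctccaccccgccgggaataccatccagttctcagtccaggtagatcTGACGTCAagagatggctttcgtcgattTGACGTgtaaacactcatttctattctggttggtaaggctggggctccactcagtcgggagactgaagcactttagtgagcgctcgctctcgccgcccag
Both motifs were chosen after the values were seen. In 32851 mouse promoters of this length, searched on both strands, TGACGTCA was found in 1.79% and TGACGT in 7.51%. Of the 13 genes that rose, 7 had a promoter in the table, with 16 promoters between them, of which 7 belong to Bdnf. TGACGTCA was found in 1 of them (Pcsk1) and TGACGT in 3 (1 promoter each of Bdnf, Pcsk1 and Ccnd3). The promoter of 1700016P03Rik was not in the table. A match of letters is a description and not a site of binding.

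The same list was counted in 3 other classes of excitatory nuclei of the same 4 libraries. In 1197 L6 CT nuclei 4 of 22 genes rose (background 0.131% of genes higher) with a median log2 fold change of 0.83, in 2276 layer 4/5 intratelencephalic (L4/5 IT) nuclei 11 of 23 rose (background 0.68%) with a median of 1.00, and in all 14664 other excitatory nuclei 2 of 23 rose (background 0.108%) with a median of 0.86. These classes come from the same mice, and the last one includes the L6 CT and L4/5 IT nuclei, so they are not independent. With every class thinned to 1821389 UMIs a library, 6 of 22, 5 of 22 and 6 of 21 genes rose in that order (background 0.252%, 0.246% and 0.375%), and 6 genes of the list rose in the L6 IT nuclei, where 22 of all 11272 genes tested rose. Tested directly as the difference of the 2 log2 fold changes, the change of Bdnf was larger by 0.69 ± 0.18 in the L6 IT nuclei than in the other excitatory nuclei, which missed the threshold (adjusted p = 0.0547). The difference for Bdnf was 0.29 ± 0.29 against L6 CT and 0.27 ± 0.22 against L4/5 IT nuclei, and that for 1700016P03Rik was -0.00 ± 0.20 and 0.25 ± 0.18, none past the threshold. For Homer1 the log2 fold change was 0.90 in the L6 IT nuclei and 1.62 in the L6 CT nuclei, a difference of -0.73 ± 0.13 (adjusted p = 0.0233). Junb, at 0.15 in the L6 IT nuclei and -0.65 in the L6 CT nuclei, differed by 0.80 ± 0.15 (adjusted p = 0.0321). By DESeq2, 2 of the 23 genes that differed from L6 CT nuclei were still called, and Junb was not among them.

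None of the ER quality control genes passed the threshold in the L6 IT nuclei. Of 79 genes of ERAD, ER folding and the UPR, 66 were tested by edgeR and none was called, the lowest adjusted p was 0.414, 9 had an unadjusted p under 0.05 in the upward direction, and the median log2 fold change was 0.06. Over all 11620 genes tested 0.172% were called, so a count of 0 among 66 does not set these genes apart. Of all genes 501 had an unadjusted p under 0.05 in the upward direction, and the median was 0.00. By DESeq2, too, 0 of them were called. By group, 26 of 28 ERAD genes were tested with a median of 0.02, 27 of 32 chaperones and folding enzymes with a median of 0.20, and 13 of 19 UPR sensors and transcription factors with a median of -0.01. Among the chaperones 7 had an unadjusted p under 0.05 upwards and 1 downwards.

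Hspa5 encodes BiP, the main chaperone of the ER lumen and a standard target of the UPR. It stood at 23.0 and 22.0 CPM in the fl/fl libraries and at 35.0 and 33.1 CPM in the SynCre libraries. The groups did not overlap, but the log2 fold change of 0.57 ± 0.21 did not pass the threshold (unadjusted p = 0.0187, adjusted p = 0.479). Herpud1, which assembles the ERAD complex at the membrane, stood at 16.7, 20.9, 18.9 and 22.7 CPM, with overlapping groups and a log2 fold change of 0.14 ± 0.25 (adjusted p = 0.939). Derl3, a Derlin of the ERAD channel, had 1, 1, 6 and 3 UMIs, too few to be tested. The UPR sensors Ern1 (24.6, 26.4, 22.8 and 27.4 CPM) and Atf6 (143, 151, 154 and 159 CPM) and the transcription factors Atf4 (13.1, 26.4, 18.5 and 17.1 CPM) and Xbp1 (23.8, 19.8, 33.5 and 22.7 CPM) gave log2 fold changes of -0.04, 0.06, -0.12 and 0.34, none past the threshold, and of these 4 genes only Atf6 had groups that did not overlap. Ddit3, which encodes the stress-induced transcription factor CHOP, had 12 and 11 UMIs against 20 and 18, or 4.76 and 6.04 CPM against 9.72 and 9.31 CPM. Its groups did not overlap, and the log2 fold change of 0.81 ± 0.39 did not pass the threshold (unadjusted p = 0.0605, adjusted p = 0.617).

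Hspa5, Herpud1 and Ddit3 rose in L4/5 IT nuclei and in the other excitatory nuclei. Hspa5 had a log2 fold change of 1.48 ± 0.13 in L4/5 IT nuclei (adjusted p = 0.0015) and 1.06 ± 0.13 in the other excitatory nuclei (adjusted p = 0.0406), and of 0.83 ± 0.17 in L6 CT nuclei, where it missed the threshold (adjusted p = 0.0723). Herpud1 had 1.18 ± 0.13 in L4/5 IT nuclei (adjusted p = 0.00436), 1.07 ± 0.11 in the other excitatory nuclei (adjusted p = 0.0264) and 1.03 ± 0.20 in L6 CT nuclei (adjusted p = 0.071). Ddit3 had 2.69 ± 0.24 in L4/5 IT nuclei (adjusted p = 0.0015), 2.02 ± 0.20 in the other excitatory nuclei (adjusted p = 0.0264) and 1.65 ± 0.31 in L6 CT nuclei (adjusted p = 0.0676). Over all genes, 0.192% were called in L6 CT, 0.99% in L4/5 IT and 0.144% in other excitatory nuclei, and those that fell made up 0.0615%, 0.31% and 0.0361%. In L4/5 IT nuclei 4 ERAD genes, 7 chaperones and 2 UPR genes rose, in the other excitatory nuclei 3, 1 and 1, and in L6 CT nuclei 1, 0 and 0.

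The differences themselves mostly missed the threshold. The change of Hspa5 in the L6 IT nuclei minus that in the other class was -0.91 ± 0.21 against L4/5 IT (adjusted p = 0.194), -0.50 ± 0.21 against the other excitatory (adjusted p = 0.707) and -0.26 ± 0.24 against L6 CT nuclei (adjusted p = 0.943). That of Herpud1 was -1.04 ± 0.24 (adjusted p = 0.194), -0.93 ± 0.25 (adjusted p = 0.065) and -0.86 ± 0.29 (adjusted p = 0.626) in the same order, and that of Ddit3 -1.87 ± 0.46 (adjusted p = 0.231), -1.21 ± 0.44 (adjusted p = 0.454) and -0.85 ± 0.49 (adjusted p = 0.881). A single gene of the 3 lists differed by the direct test, Fkbp2, a prolyl isomerase of the ER, with a log2 fold change of -0.59 in the L6 IT nuclei and 0.23 in the other excitatory nuclei, a difference of -0.83 ± 0.21 (adjusted p = 0.0424). That call was lost by DESeq2, at the thinned depth and without fl/fl 2. With no filter on low counts, 4 of 79 genes of these lists differed from L4/5 IT nuclei, where 24688 genes were tested. The number of all genes that differed in that setting is given in the last section.

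The L6 IT nuclei of a library held fewer UMIs in sum than those of the other classes. When the libraries of every class were thinned to 1821389 UMIs, the total of the smallest L6 IT library, 22 genes rose and 16 fell of 11272 tested in the L6 IT nuclei, none of them an ER quality control gene. At that depth 44 genes were called in L6 CT, 38 in L4/5 IT and 65 in other excitatory nuclei (0.396%, 0.334% and 0.567% of those tested, or 0.252%, 0.246% and 0.375% counting those that rose and 0.144%, 0.0878% and 0.192% counting those that fell). The number of ERAD, chaperone and UPR genes that rose was then 0, 1 and 0 in L6 CT, 1, 3 and 1 in L4/5 IT and 2, 4 and 0 in other excitatory nuclei.

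**Figure D4:**
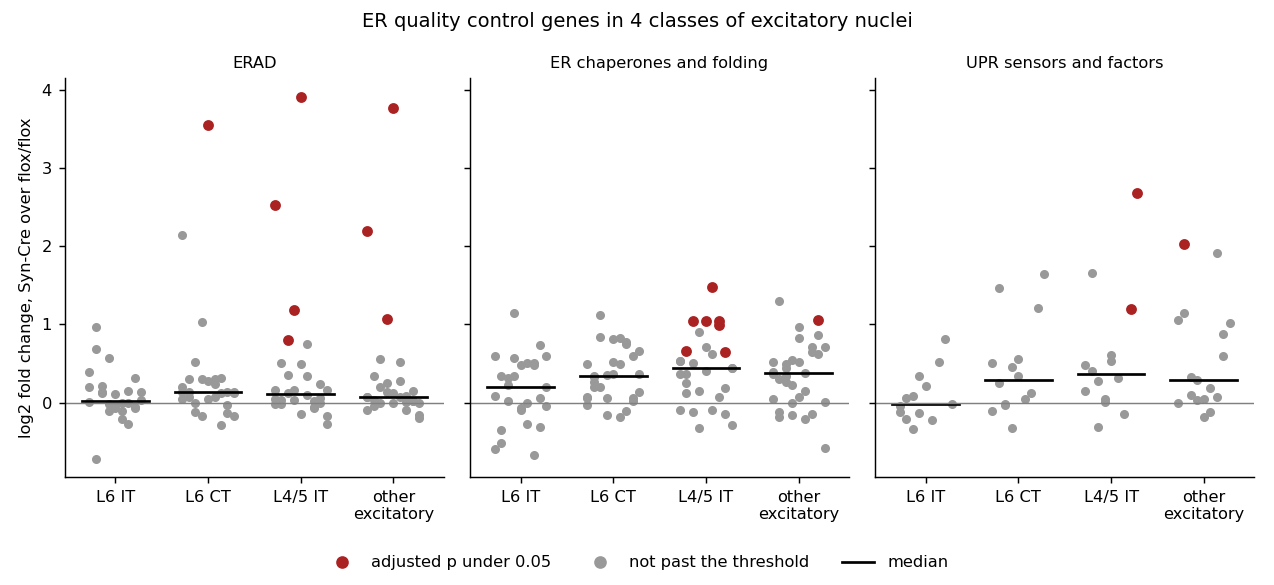
Log2 fold change (SynCre over fl/fl) of each tested gene of 3 ER quality control lists in 4 classes of excitatory nuclei, with genes past the threshold in red and the median of each list as a bar. In the L6 IT nuclei no gene is red and the medians are 0.02, 0.20 and -0.01, while L4/5 IT nuclei show 4, 7 and 2 genes past the threshold. Over all genes 0.112% rose in L6 IT and 0.68% in L4/5 IT nuclei, which held more UMIs. At the thinned depth 1, 3 and 1 genes rose in L4/5 IT nuclei, beside 0.246% of all genes.

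Of the 22 pathway lists, 19 held no gene past the threshold in the L6 IT nuclei. Over all 11620 genes tested there 0.172% passed, so holding none does not set a list apart. The amino acid transporters, many of them targets of the stress factor ATF4, had 0 of 11 tested genes called with a median log2 fold change of 0.29, against 7 of 11 in L4/5 IT nuclei, of which none was called at the thinned depth. Over all genes 0.68% rose in L4/5 IT nuclei, and 0.246% at the thinned depth. The list of serine synthesis and mitochondrial folate enzymes, which feed the one-carbon pool, had 0 of 7 called with a median of 0.02, against 2 of 10 and a median of 0.97 in L4/5 IT nuclei, and 1 of 8 there at the thinned depth. The glucocorticoid-responsive genes had 0 of 6 called with a median of 0.63. Fkbp5, the cochaperone that rises with corticosterone, stood at 19.8 and 24.7 CPM against 46.6 and 82.2 CPM, with no overlap and a log2 fold change of 1.51 ± 0.26 (adjusted p = 0.0552). The difference of the list medians between classes was not tested.

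Of 41 potassium, sodium and calcium channel genes 40 were tested, 1 fell (Kcnh5) and 7 had an unadjusted p under 0.05, all in the downward direction, with a median of -0.13. Over all 11620 genes tested 0.0602% fell and 473 had an unadjusted p under 0.05 in the downward direction. Of 25 glutamate receptor and scaffold genes 24 were tested and none was called. Among 23 neuropeptide genes and their processing enzymes 11 were tested and 1, Pcsk1, rose, beside 0.112% of all genes. Chgb, another granin, stood at 33.3 and 34.6 CPM against 62.2 and 85.3 CPM (1.09 ± 0.19, adjusted p = 0.0557), again without overlap but short of the threshold.

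The 7 genes that fell included a marker of L6 CT neurons and a gene that defined the L4/5 IT nuclei. Tle4, a Groucho corepressor and a marker of L6 CT neurons, stood at 80.9 and 81.3 CPM in the fl/fl libraries and at 26.7 and 41.9 CPM in the SynCre libraries, a log2 fold change of -1.27 ± 0.20 (adjusted p = 0.0419). In L6 CT nuclei themselves Tle4 stood at 593, 560, 611 and 577 CPM, a log2 fold change of -0.01 ± 0.13. Kcnh5, a voltage-gated potassium channel and one of the genes that defined the L4/5 IT nuclei, stood at 47.2 and 28.5 CPM against 7.77 and 12.4 CPM (-1.96 ± 0.32, adjusted p = 0.0435). Both SynCre libraries were lower than both fl/fl libraries in each of the 7 genes, which were picked by a test between these libraries.

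The cell adhesion gene Cntn6 stood at 121 and 109 CPM against 59.8 and 54.8 CPM (-1.03 ± 0.16, adjusted p = 0.0391), and Zmat4, a zinc finger gene, at 116 and 116 CPM against 61.2 and 55.8 CPM (-1.01 ± 0.15, adjusted p = 0.0391). Eda, the TNF-family ligand ectodysplasin, stood at 69.8 and 47.8 CPM against 20.9 and 19.1 CPM (-1.59 ± 0.24, adjusted p = 0.0391). Col19a1, a collagen, stood at 50.4 and 75.8 CPM against 21.9 and 21.2 CPM (-1.55 ± 0.23, adjusted p = 0.0391). Pde11a (chr2:75989141-76338774, minus strand), a phosphodiesterase for cAMP and cGMP, had 47 and 32 UMIs against 6 and 5, or 18.6 and 17.6 CPM against 2.92 and 2.58 CPM, a log2 fold change of -2.72 ± 0.38 (adjusted p = 0.0364). Pde11a was low in L6 CT nuclei, at 1.63, 4.13, 0.80 and 4.60 CPM.

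Estimates for markers of L6 CT neurons were mostly below 0. Of the 5 markers that no rule used, all 5 were tested, all 5 estimates were below 0 with a median of -0.92, and 1 gene fell (Tle4), beside a median of 0.00 over all 11620 genes tested, of which 0.0602% fell. Markers of other excitatory classes also had medians below 0 in the L6 IT nuclei. The median was -0.59 over 5 L2/3 IT markers tested, -0.41 over 4 L4/5 IT markers, of which Kcnh5 fell, -0.38 over 5 L5 IT markers and -0.43 over 3 markers of L5/6 near-projecting neurons, and the 1 L6b marker tested was at -0.93. In the same order the medians in L6 CT nuclei were -0.13, -0.40, -0.60, -0.38 and -0.38, also below 0. They were -0.11, -0.21, -0.25, -0.10 and -0.18 in L4/5 IT nuclei. In the other excitatory nuclei they were -0.25, -0.31, -0.23, -0.32 and -0.40. The number of genes tested per list differed between classes. Whether the list medians differ from each other or between classes was not tested. Hs3st4, a heparan sulfate sulfotransferase and the most abundant of the L6 CT markers, stood at 304 and 354 CPM against 114 and 210 CPM, with no overlap and a log2 fold change of -1.05 ± 0.22 (adjusted p = 0.108). In L6 CT nuclei it stood at 2934, 2598, 2790 and 2531 CPM. The UMIs of Hs3st4 came from few members, since it had a UMI in 27.3%, 25.7%, 19.1% and 24.8% of them, and 42 members held 10 or more (11, 13, 8 and 10).

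Leaving out those 42 nuclei ended the call of every gene that fell. Among the remaining 462 nuclei 4 genes rose (1700016P03Rik, Bdnf, Gm47423 and Galnt16) and none fell by the edgeR test, with 917 genes at an unadjusted p under 0.05. The log2 fold change went from -1.27 to -0.54 for Tle4, from -1.03 to -0.42 for Cntn6, from -1.01 to -0.56 for Zmat4 and from -1.96 to -1.49 for Kcnh5, but was -1.57 for Eda (adjusted p = 0.0534) and -1.54 for Col19a1 (adjusted p = 0.117). Pde11a then had too few UMIs to be tested. In the 310 members without a UMI of any of the 5 L6 CT genes, 5 genes rose and 2 fell, and 5 of the 20 genes remained, namely 1700016P03Rik, Bdnf, Gm47423 and Arhgap31, which rose, and Eda, which fell. In the 2 subsets the log2 fold change of Bdnf was 1.48 and 1.77 and that of 1700016P03Rik 2.20 and 2.37. The calls of the genes that fell also changed in other subsets. Without the nuclei marked as doublets, Eda (-1.58) and Kcnh5 (-1.82) were still called, while Tle4 (-0.95), Cntn6 (-0.94), Zmat4 (-0.99), Col19a1 (-1.54) and Pde11a (-2.50) were not. Without the members that held glial markers, Pde11a alone of the 7 was called (-4.70, adjusted p = 0.00908), and Zmat4 was at -0.33 (adjusted p = 0.778), Kcnh5 at -0.72 (adjusted p = 0.82), Cntn6 at -0.67, Tle4 at -0.88, Col19a1 at -0.92 and Eda at -1.26. Among members with at least 4 genes of the rule, Zmat4 (-1.90), Eda (-1.76) and Col19a1 were called, and Cntn6 (-1.45), Tle4 (-1.25), Kcnh5 (-2.01) and Pde11a (-3.61) were not. How far RNA of L6 CT or other cells entered the genes that fell was not tested beyond these subsets.

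**Figure D5:**
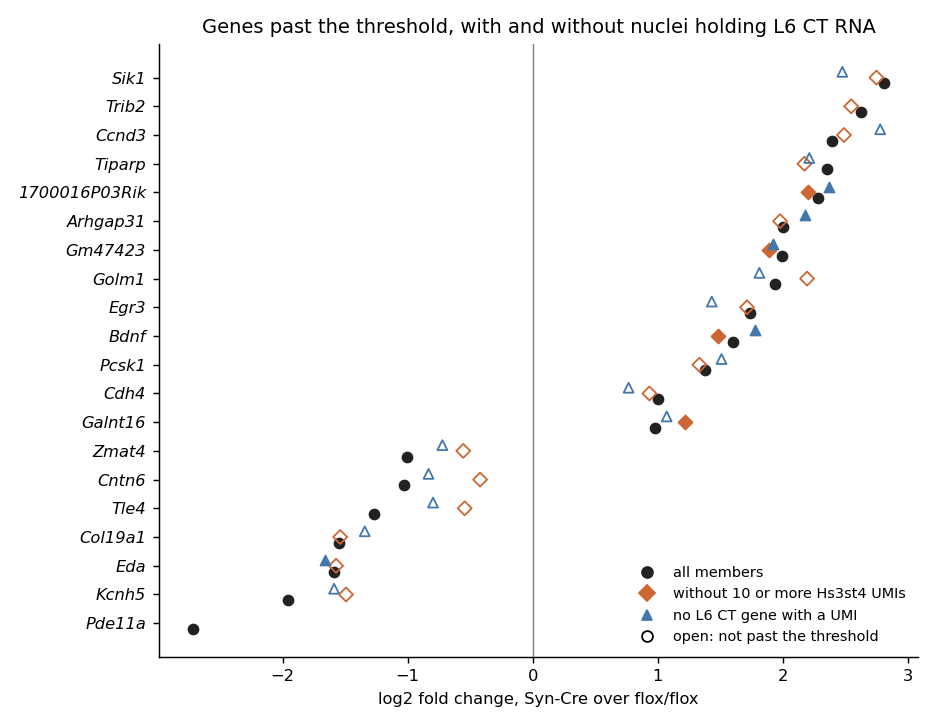
Log2 fold change (SynCre over fl/fl) of the 20 genes in all 504 members, in the 462 with fewer than 10 UMIs of Hs3st4, and in the 310 without a UMI of the 5 L6 CT genes of the rule, filled where past the threshold. Bdnf lies at 1.60, 1.48 and 1.77 in the 3 sets, while Tle4 moves towards 0, from -1.27 to -0.54 and -0.80. Pde11a was not tested in either subset and Trib2 not in the second.

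A direct test compared the change in L6 IT nuclei with that in each of the other classes, with the library as a block. Against L6 CT nuclei 23 of 13156 genes differed (0.175%), 7 with a higher (0.0532%) and 16 with a lower change (0.122%) in L6 IT nuclei. Against L4/5 IT nuclei 9 of 14492 differed (0.0621%), 3 higher (0.0207%) and 6 lower (0.0414%), and against the other excitatory nuclei 70 of 18985 (0.369%), 28 higher (0.147%) and 42 lower (0.221%). The first and the last count include Syt6, whose UMIs chose the nuclei, so that its difference is no finding. Without it 22 genes differed from L6 CT nuclei, 15 of them lower, and 69 from the other excitatory nuclei, 41 of them lower. By DESeq2, 2 of the 23 genes, 1 of the 9 and 8 of the 70 were still called.

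Of the 28 differences named by rule, those of Sdk1 and Zfp804b were called in each of the 8 alternatives of their comparison. Sdk1, a synaptic adhesion molecule of the immunoglobulin family, stood at 418, 333, 592 and 646 CPM in the L6 IT nuclei and at 219, 211, 145 and 149 CPM in L4/5 IT nuclei. The log2 fold change was 0.69 in L6 IT nuclei, not past the threshold (adjusted p = 0.141), and -0.59 in L4/5 IT nuclei (adjusted p = 0.0364), a difference of 1.28 ± 0.11 (adjusted p = 5.09e-05). Zfp804b stood at 1611, 1277, 1274 and 819 CPM in L6 IT and 365, 262, 172 and 76.8 CPM in L6 CT nuclei. The log2 fold changes were -0.48 and -1.39, neither past the threshold, a difference of 0.95 ± 0.13 (adjusted p = 0.00457).

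Cdh4 rose in L6 IT nuclei but stood at 27.8, 38.0, 27.6 and 31.6 CPM in L4/5 IT nuclei, a difference of 1.16 ± 0.16 (adjusted p = 0.0117). For Tle4 the difference was -1.26 ± 0.18 against L6 CT (adjusted p = 0.00457) and -1.27 ± 0.20 against L4/5 IT nuclei (adjusted p = 0.0243). For Pde11a it was -3.17 ± 0.46 against L4/5 IT (adjusted p = 0.0119) and -2.56 ± 0.40 against the other excitatory nuclei (adjusted p = 5.44e-06), where Pde11a stood at 18.7, 20.8, 18.5 and 16.8 CPM. Against L4/5 IT nuclei these 3 differences were lost by DESeq2 (adjusted p = 0.284, 0.284 and 0.418) and at the thinned depth, those of Cdh4 and Tle4 also without SynCre 1 and that of Pde11a without SynCre 2. Of the 9 genes that differed from L4/5 IT nuclei, 1 was still called by DESeq2 (Sdk1), 2 without SynCre 1 and 3 at the thinned depth.

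Several differences hung on 1 library. Grik1, a kainate receptor subunit, stood at 46.8, 12.6, 7.77 and 5.17 CPM in the L6 IT nuclei, so that fl/fl 1 was far above the rest, and its difference against the other excitatory nuclei went from -2.06 ± 0.32 to -0.71 without fl/fl 1. Against L6 CT nuclei, in which Grik1 stood at 15.9, 4.13, 13.4 and 16.8 CPM, the difference was -2.74 ± 0.35 (edgeR adjusted p = 0.00457). It lay between -3.21 and -2.30 under the 8 alternatives and was not called by DESeq2. Ndst4, a heparan sulfate enzyme, had 6, 99, 3 and 3 UMIs, and Spag16, a protein of the ciliary axoneme, 8, 80, 9 and 14 UMIs, both carried by fl/fl 2. Without fl/fl 2 the difference of Ndst4 went from -3.62 to -0.41 and that of Spag16 changed sign, from -2.08 to 0.37. The noncoding gene Gm32647 stood at 63.9 CPM in fl/fl 1 and at 202, 225 and 237 CPM in the other libraries, and its difference against the other excitatory nuclei went from 0.94 to 0.45 without fl/fl 1. Sema5a, a semaphorin, stood at 65.5, 20.9, 25.3 and 12.4 CPM, and its difference against L6 CT nuclei went from -1.62 to -0.75 without fl/fl 1. Unc13c, a presynaptic priming factor, stood at 58.7, 23.6, 89.9 and 47.6 CPM with overlapping groups, and its difference against the other excitatory nuclei went from 1.07 to 0.42 without fl/fl 2 and to 2.17 without fl/fl 1. Dock8, a guanine nucleotide exchange factor, had 2, 2, 8 and 20 UMIs. Dock8 and Ndst4 had too few UMIs to be tested in the L6 IT nuclei alone.

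The share of L6 IT nuclei was higher in both SynCre libraries, but not beyond what 2 against 2 libraries can test, and Dnah14, itself higher in the SynCre libraries, is part of the rule. Members made up 2.66% (95% Wilson interval 2.26 to 3.13) and 3.41% (2.84 to 4.08) of excitatory nuclei in the fl/fl libraries and 4.02% (3.40 to 4.75) and 3.59% (3.01 to 4.27) in the SynCre libraries. The means were 3.03% ± 0.527 and 3.81% ± 0.308 (SD, n = 2 libraries a label), a difference of 0.772 percentage points with a two-sided exact permutation p of 0.333, the smallest that 2 against 2 libraries can give. Without fl/fl 1 the difference was 0.399 points. Under the rule without Dnah14 the means were 2.01% and 2.30%, a difference of 0.283 points (exact p = 0.667).

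The share depended on depth. After each nucleus was thinned to 5000 UMIs and the rule applied again, leaving out 145, 107, 114 and 73 shallower excitatory nuclei, members made up 0.917%, 1.64%, 1.47% and 1.29% of excitatory nuclei. The labels then overlapped, with means of 1.28% ± 0.508 and 1.38% ± 0.125 and a difference of 0.107 points (exact p = 1). The median depth of the members was 15857, 14413, 14070 and 14500 UMIs against 12772, 11860.5, 11980 and 12171 in the other excitatory nuclei. All intervals cover counting error only.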

How the data were processed

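Nuclei of cortex and hippocampus from 4 mice, 2 libraries a label, were measured by single-nucleus RNA-seq. The authors deposited matrices of UMI counts per gene and nucleus, made with Cell Ranger 6.1.0 on GRCm38 per the submitters' processing notes. Whether introns and strand were counted is not given in the sources used here. Deposited counts summed to 122870443, 76617523, 75227337 and 74082610 UMIs in 36619 nuclei. Nuclei with more than 600 genes and under 5% mitochondrial UMIs were kept (36094). Between 9 and 32 barcodes were shared by pairs of libraries, 0 among members. L4/5 IT nuclei held UMIs of at least 3 of Rorb, Il1rapl2, Whrn, Rspo1, Scnn1a and Kcnh5, and L6 CT nuclei mirrored the L6 IT rule. One marker gene is not reported here.

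Counts were summed per library and class and tested with edgeR 4.0.16 (quasi-likelihood, TMM, filterByExpr, prior count 0.125) in R 4.3.3, with Benjamini-Hochberg adjustment over all genes tested and a threshold of 0.05. Differences between classes were fitted with the library as a block. Each SE of a log2 value was derived from the edgeR test, as its absolute size over the square root of the F statistic. Alternatives were DESeq2 1.42.0, RLE size factors, other filters on low counts, the replicate number as a block, each library left out, Scrublet doublets left out (0.8% expected per 1000 nuclei; doublets stayed in otherwise), members with glial markers left out, stricter member rules and thinned counts. Leaving out nuclei with 10 or more Hs3st4 UMIs and the rule without Dnah14 were chosen after seeing the data. Counts of alternatives include the 4 fits with 1 library left out, where the spread comes from the other label alone. Python 3.11.15, scanpy 1.11.5, numpy 2.4.6, scipy 1.17.1 and pandas 2.3.3 were used, and the fits were checked on simulated data.

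The members and lists were chosen with earlier results of these data known. The text names in each direction, of the genes called with 20 UMIs or more, the 12 with the largest log2 change, 5 differences per direction and class, and, of the lists, genes past the threshold and up to 3 others with most UMIs. Galnt16 and the other genes outside these rules, such as Nr4a3, Scg2, Egr1, Npas4, Hspa5, Herpud1, Ddit3, Derl3, Fkbp2, Fkbp5, Chgb and Hs3st4, were chosen after their values were seen. Of 3 ER stress motifs (the ER stress response element ERSE, TGATGNAAT and TGACGTGG, both strands), found in 0.119%, 0.965% and 0.676% of promoters, 0 of the 16 promoters of the genes that rose held a match. Coordinates are from GENCODE on GRCm38. With 1 mouse a library, p-values measure the spread between these libraries. Groups without overlap are described for picked genes only, and the share of all genes tested without overlap is not given.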

Additional observations from a re-analysis of the deposited data

Results flagged for a closer look

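The comparison of classes gave 6 counts of genes whose difference between the labels was itself different in the L6 IT nuclei by the edgeR test with the library as a block. Against L6 CT nuclei 7 genes had a higher and 16 a lower log2 change in L6 IT nuclei, against L4/5 IT nuclei 3 and 6, and against all other excitatory nuclei 28 and 42. The 16 and the 42 include Syt6, a gene of the rule, and are 15 and 41 without it. Of the 28 differences named, 2 were called under every alternative (Zfp804b against L6 CT and Sdk1 against L4/5 IT nuclei). With 1 library left out the spread comes from the other label alone, so calls lost that way are listed as a description only. The calls of Sema5a, Dock8, Trib2, Slc7a3, Gm32647 and Grik1 (the last 2 against the other excitatory nuclei) were lost without fl/fl 1, and those of Unc13c, Ndst4 and Spag16 without fl/fl 2. Without SynCre 1 the calls of Gm32647, Junb, Kcnh5, Sema5a and C130073E24Rik against L6 CT nuclei, of Unc13c and Slc7a3 against the other excitatory nuclei, and of each gene named against L4/5 IT nuclei except Sdk1 and Pde11a were lost. Without SynCre 2 those of Plcxd3, Sema5a, C130073E24Rik, Dock8, Trib2 and Slc7a3, and of Pde11a and Zmat4 against L4/5 IT nuclei, were lost.

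Against L6 CT nuclei the higher log2 changes were 1.46 for Gm32647, 0.95 for Zfp804b, 0.80 for Junb, 0.75 for Plcxd3 and 0.60 for March1. The lower ones were -2.74 for Grik1, -1.67 for Kcnh5, -1.66 for Ust, -1.62 for Sema5a and -1.61 for C130073E24Rik. Kcnh5 is one of the genes that defined the L4/5 IT nuclei.

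Against L4/5 IT nuclei the higher log2 changes were 1.28 for Sdk1, 1.16 for Cdh4 and 0.99 for Ntng2. The lower ones were -3.17 for Pde11a, -1.52 for Mcc, -1.27 for Tle4, -0.75 for Cntnap5a and -0.70 for Zmat4.

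Against all other excitatory nuclei the higher log2 changes were 3.74 for Dock8, 2.04 for Trib2, 1.57 for Golm1, 1.07 for Unc13c and 0.94 for Gm32647. The lower ones were -3.62 for Ndst4, -2.56 for Pde11a, -2.08 for Spag16, -2.06 for Grik1 and -2.05 for Slc7a3, a cationic amino acid transporter with 8.33, 6.59, 4.37 and 2.07 CPM in the L6 IT nuclei. Dock8 (2, 2, 8 and 20 UMIs) and Ndst4 (6, 99, 3 and 3 UMIs) had too few UMIs in the L6 IT nuclei to be tested there alone and entered the comparison through the other class.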

How the results depend on the processing

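With 2 libraries a label and 504 nuclei, the counts of genes past the threshold moved with most settings, and the cause was not tested. Against 13 genes higher and 7 lower, with 3 genes of the pathway lists and 3 activity genes higher, DESeq2 gave 16 and 13, with 6 pathway and 5 activity genes; no filter on low counts 33 and 25, with 9 and 7; and at least 10 UMIs in every library 21 and 16, with 9 and 7. RLE size factors left all of these counts as they were. Thinned counts gave 22 and 16, with 8 and 6. Leaving out Scrublet doublets gave 5 and 3, members with glial markers 21 and 9 (6 pathway and 5 activity genes), and members with 10 or more Hs3st4 UMIs 4 and 0 (1 and 1). At least 4 genes of the rule gave 5 and 9 (1 and 1), no L6 CT gene with a UMI 5 and 2 (1 and 1), and the rule without Dnah14 2 and 4 (1 and 1). Leaving out 1 library gave 16 to 159 genes higher and 11 to 122 lower, with 3 to 17 pathway genes, 0 to 1 ER genes and 3 to 12 activity genes, the fewest without SynCre 2 and the most without fl/fl 2. The direction of the 20 genes was kept wherever they were tested. With 1 library left out the spread comes from the other label alone, so those counts cannot be set against the rest.

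The replicate numbers mark no shared animal, but they coincide with sex, and the deviations of same-numbered libraries from their group means had a correlation of 0.168. With the replicate number as a block, 52 genes were higher and 39 lower, with 10 pathway and 7 activity genes, and all 20 genes remained.

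For the differences between classes, DESeq2 gave 1 gene higher and 1 lower against L6 CT, 1 and 0 against L4/5 IT, and 2 and 6 against the other excitatory nuclei. RLE size factors gave 10 lower against L6 CT. No filter gave 27 and 48 against L6 CT and 41 and 70 against L4/5 IT nuclei. The counts against L4/5 IT nuclei, of 24688 genes tested, include 4 of 79 ER quality control genes. Thinned counts gave 1 and 2 against L4/5 IT and 8 and 22 against the other excitatory nuclei. With 1 library left out the counts were 4 to 29 higher and 9 to 57 lower against L6 CT, 4 to 27 and 3 to 58 against L4/5 IT, and 24 to 34 and 36 to 66 against the other excitatory nuclei. The difference of Spag16 against the other excitatory nuclei ran from -3.28 without fl/fl 1 to 0.37, reversed, without fl/fl 2. The difference in the share of L6 IT nuclei was 0.107 points when thinned, 0.283 without Dnah14, and 0.399 to 1.14 with 1 library left out.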
